A study of Mus musculus with 2 samples.

Results

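Natural killer (NK) cells and type 1 innate lymphoid cells (ILC1) of the liver were taken from 2 single-cell libraries as the barcodes that carried their transcripts and no transcript of the CD3 complex of T cells. A barcode was a member when it held at least 500 UMIs (unique molecular identifiers, 1 per captured molecule), at most 50% of them from mitochondrially encoded genes, no UMI of Cd3d, Cd3e or Cd3g, and at least 3 of the 9 genes Ncr1, Klrb1c, Klre1, Klrd1, Klrk1, Gzma, Nkg7, Xcl1 and Eomes. Barcodes with 3 or more of the macrophage genes C1qa, C1qb, C1qc, Clec4f and Cd5l and the B cell genes Cd79a, Cd79b, Pax5 and Ebf1 were left out. This gave 84 of 47880 barcodes that passed the depth and mitochondrial limits, 25 of 29620 in the WT library and 59 of 18260 in the HKO library. The 9 marker genes chose the barcodes, so the members were chosen by the detection of these genes, and the levels of these genes are given below as a description only.

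The mice were male littermates kept on CD-HFD, a high-fat diet without choline, for 6 months from 8 weeks of age, a feeding model of steatohepatitis. WT mice kept miR-33 in hepatocytes, and whether they carried loxP-flanked alleles is not given in the sources used here. HKO mice, whose genotype label is AlbCRE, carried loxP-flanked miR-33 alleles and Cre recombinase under the albumin promoter, a promoter that is active in hepatocytes. Each genotype was 1 library made from a pool of 3 livers, in which hepatocytes and sorted live non-parenchymal cells had been mixed in equal numbers, so there was no replicate and no test between genotypes. The study used these libraries to see which liver cells respond when miR-33 is absent from hepatocytes. All intervals below are exact 95% intervals that cover counting error only. Fewer cells of a type and less RNA per cell cannot be told apart in sums over barcodes.

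NK cells are innate lymphocytes that kill infected, transformed or stressed cells with perforin and granzymes when activating receptors outweigh inhibitory receptors for MHC class I molecules. ILC1 are their tissue-resident relatives, which produce interferon gamma and TRAIL and seldom recirculate. In mouse liver both express NKp46 (Ncr1) and NK1.1 (Klrb1c), and they are told apart by the integrins CD49b (Itga2) on NK cells and CD49a (Itga1) on ILC1 and by the transcription factor Eomes in NK cells.

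The microRNA that was deleted in the hepatocytes of the HKO mice, mmu-miR-33-5p, is shown because its deletion in hepatocytes is the difference the study designed between the genotypes, with its seed (bases 2 to 8) in capitals. It lies on the plus strand at chr15:82198127-82198147 (RefSeq, GRCm38.p6).
mmu-miR-33-5p: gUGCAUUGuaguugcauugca
The 250 bases upstream of the annotated start of 3 of the marker genes are shown because these genes define the cells by being expressed together, and these 3 because each lies upstream of the gene in both annotations used and holds a match to a motif below. The Eomes stretch, which held neither motif, is not shown. Capitals mark matches to GTGTGA, a core that T-box factors such as T-bet and Eomes bind, and to TGTGGT, the core bound by RUNX factors, on either strand. The sequences run in the direction of transcription, from RefSeq on GRCm38.p6. Ncr1 is on the plus strand at chr7:4337474-4337723, Klrk1 on the minus strand at chr6:129623865-129624114 and Gzma on the minus strand at chr13:113100982-113101231.
Ncr1: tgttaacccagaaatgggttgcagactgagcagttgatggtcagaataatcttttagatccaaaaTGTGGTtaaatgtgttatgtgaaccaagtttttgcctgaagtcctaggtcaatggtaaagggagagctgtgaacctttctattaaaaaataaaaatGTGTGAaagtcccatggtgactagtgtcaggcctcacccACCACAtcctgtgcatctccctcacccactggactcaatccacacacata
Klrk1: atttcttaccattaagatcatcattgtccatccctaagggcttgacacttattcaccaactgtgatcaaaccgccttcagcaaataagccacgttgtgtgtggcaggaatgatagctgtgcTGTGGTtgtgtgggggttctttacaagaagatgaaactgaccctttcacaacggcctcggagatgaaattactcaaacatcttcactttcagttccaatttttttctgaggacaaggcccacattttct
Gzma: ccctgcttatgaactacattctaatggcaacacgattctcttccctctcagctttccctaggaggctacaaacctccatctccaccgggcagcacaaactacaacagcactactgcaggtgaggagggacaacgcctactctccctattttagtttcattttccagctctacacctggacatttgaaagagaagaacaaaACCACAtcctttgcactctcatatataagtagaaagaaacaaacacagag
The Ncr1 stretch held 1 T-box match and 2 RUNX matches, and the Klrk1 and Gzma stretches held 1 RUNX match each, with no overlap between the motifs. Of the 9 marker genes, 8 had a promoter in the table. These 8 genes had 10 promoter entries, since Ncr1 and Klre1 had 2 each. The RUNX letters were in 8 of the 10 entries, of all genes but Eomes, and in 14.0% of all 32851 promoter entries of the same length. The T-box letters were in 5 of the 10, of Ncr1, Klre1, Nkg7 and Xcl1, and in 12.3% of all entries. Entries of 1 gene overlap and are not independent. A match describes letters and was not tested as a binding site.

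The label was checked against genes outside the rule. Txk, a Tec family kinase abundant in NK cells, had a UMI in 20 of 25 WT members (80.0%, 59.3 to 93.2) and in 50 of 59 HKO members (84.7%, 73.0 to 92.8), beside 3 of 27 WT and 1 of 115 HKO barcodes with B cell markers. It was also in 50 of 97 WT and 166 of 336 HKO T-like barcodes, so its presence alone does not tell a member from a T cell. Klrb1b, a lectin-like receptor outside the rule, had a UMI in 19 WT and 38 HKO members and in 1 of 97 and 0 of 336 T-like barcodes. Fcer1g, the gamma chain through which NKp46 signals, was detected in 17 WT and 39 HKO members, and Tyrobp, the adaptor of several killer cell receptors, in 12 and 37. Among barcodes with 3 or more markers and a CD3 transcript, Fcer1g was in 16 of 35 in WT and 28 of 100 in HKO. Tyrobp was in 16 and 12 of these, so in WT its presence alone does not tell a member from a T cell. The T cell receptor alpha constant gene Trac was found in 1 of 25 and 2 of 59 members, and Cd4, Cd5 and Cd8b1 had no UMI in either library. The beta constant gene Trbc1, however, was found in 13 WT and 36 HKO members and Trbc2 in 8 and 22, so that transcripts of this locus were frequent in barcodes without CD3 transcripts. Transcripts of Trbc1 were at 1084 and 1623 CPM in the members and at 937 and 1048 CPM in T-like barcodes, on the scale defined below. Of markers of other cells, all 5 neutrophil markers were at 0 in both libraries, the 4 gamma-delta T markers had 7 WT and 7 HKO UMIs with Tcrg-C1 at 0, and the 6 B cell markers, among them exclusion genes of the rule, had 4 and 11 UMIs with Cd79a and Cd79b at 0. Outside the rule, Klrb1b thus set the members apart from T-like barcodes in both libraries. Detection of the adaptors set them apart from barcodes with a CD3 transcript more clearly in HKO than in WT. Trac was rare in members while Trbc1 was not below its T-like level, and what the beta transcripts mean for the label was not tested.

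The members differed in depth between the libraries and carried RNA of other cells. WT members had between 2729 and 47375 UMIs with a median of 7845, and HKO members between 1067 and 17257 with a median of 2898. Hepatocyte RNA was present in each of them. Alb and 7 other hepatocyte genes made up a median of 4.05% of UMIs in WT members and 2.11% in HKO members. In the barcodes called free RNA here the median was 8.98% in WT and 7.91% in HKO. That class was not screened for hepatocyte markers, so it can include hepatocytes. Summed over members, the hepatocyte genes made up 6.26% of UMIs in WT and 3.00% in HKO, above the medians. The sums therefore do not describe a typical member. Scaled by these sums, free RNA would account for 69.7% of the UMIs of the WT members and 36.4% of those of the HKO members. For this reason levels are given in CPM, a gene's UMIs scaled to a fixed total of the UMIs of lymphocyte-enriched genes, the 5652 genes at least 4-fold higher in lymphocyte barcodes than in free RNA, of which the members held 37831 UMIs in WT and 56673 in HKO. The deepest WT member held 19.6% of all UMIs of the WT members and 3.45% of these enriched UMIs. At least 2 endothelial markers were detected in 6 WT and 3 HKO members, and 11 members in all, 6 in WT and 5 in HKO, were doublet-like by such markers or by depth. Cell barcodes shared between the libraries were not counted, since the barcode sequences of the WT library were not used here.

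The limit of 3 markers cut through a continuous range. With exactly 3 markers there were 6 WT and 14 HKO members, and with exactly 2 markers and otherwise the same there were 8 and 39 barcodes outside. Txk was detected in 3 of the 6 and 12 of the 14 just inside and in 2 of the 8 and 13 of the 39 just outside. As a description, Txk was in a smaller share of the barcodes just outside in both libraries, which in WT also had a lower median depth, 3243 UMIs against 6058 just inside, beside 2151 against 2162 in HKO. Fcer1g had the same order, in 3 of 6 and 6 of 14 just inside and in 2 of 8 and 11 of 39 just outside. Tyrobp did not, in 0 of 6 and 4 of 14 just inside and in 2 of 8 and 11 of 39 just outside. A further 35 WT and 100 HKO barcodes had 3 or more markers together with a CD3 transcript, and 25 and 56 of these also had Trac.

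NK and ILC1 barcodes were 0.0844% of all WT barcodes (0.0546 to 0.125). The HKO share was 0.323% (0.246 to 0.417), which was 3.83 times the WT share (2.36 to 6.38). The direction depended on the denominator. Among lymphocyte barcodes, which are the members together with T-like and B-like barcodes, the WT share was 16.8% (11.2 to 23.8). The HKO share was 11.6% (8.92 to 14.7), which was 0.689 times the WT share (0.425 to 1.15). For every 100 T-like barcodes, which had at least 2 of Cd3d, Cd3e and Cd3g, there were 25.8 members in WT and 17.6 in HKO. The median depth of free RNA barcodes was 2603 UMIs in WT and 922 in HKO, so the denominators differed in depth as well as in number. When each barcode was thinned to 1000 UMIs before the rule was applied, 8 WT and 41 HKO barcodes met it. Barcodes that lost a CD3 transcript by thinning could enter, so these are not counts of members kept. Because the cells had been mixed in set proportions, none of these shares is the share in the liver.

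The marker genes were unevenly spread over the members. Among the receptors, Ncr1, the natural cytotoxicity receptor NKp46, had 49 UMIs in 21 of 25 WT members and 88 UMIs in 36 of 59 HKO members, and Klrb1c had 56 UMIs in 21 and 93 UMIs in 44. Klre1, which forms inhibitory and activating pairs with other lectin-like receptors, had 52 UMIs in 19 and 88 in 39. Klrk1 (NKG2D), the receptor for stress-induced ligands, had 94 UMIs in 23 WT members and 104 in 42 HKO members. Klrd1 (CD94), the partner of the NKG2 receptors, had 33 UMIs in 18 and 109 in 46. These 5 receptors were each present in most members of both libraries at 0 to 14 UMIs per barcode. Gzma and Xcl1, which encode secreted proteins, were in fewer members than these receptors and reached higher numbers in single barcodes. Gzma (granzyme A) was found in 5 WT and 13 HKO members, and 1 WT member held 59 of the 109 WT UMIs. Xcl1, the chemokine that attracts cross-presenting dendritic cells, had 119 UMIs in 12 WT members and 120 in 34 HKO members, with up to 25 and 20 in 1 barcode. Nkg7, a protein of cytotoxic granules, had 60 UMIs in 12 and 134 in 34. Eomes was sparse, with 5 UMIs in 3 WT members and 12 in 8 HKO members.

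**Figure D1:**
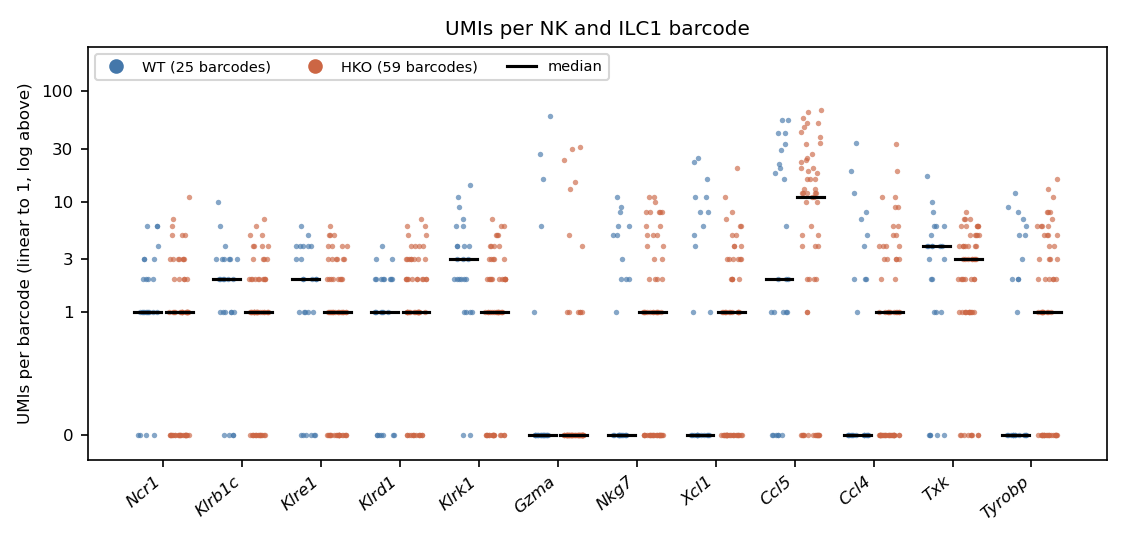
UMIs of 12 genes in each NK and ILC1 barcode (1 point per barcode, the vertical axis linear to 1 and logarithmic above), WT in blue and HKO in orange, with the median as a black line. The 5 lectin-like and NKp46 receptor genes stay at or below 14 UMIs in each barcode, while Gzma is at 0 in most barcodes and reaches 59 in 1 of them.

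Seen along the genome, most of these receptors belong to the natural killer gene complex. On mouse chromosome 6 the killer cell lectin-like receptor genes of the complex lie between 128609227 and 130386874 (GRCm38, GENCODE M21), where 23 were annotated in the count tables and 22 had a UMI in the members. Together they had 491 UMIs in WT members (1.30% of enriched UMIs) and 883 in HKO members (1.56%). T-like barcodes had 527 and 668 UMIs of the same genes, 0.333% and 0.217% of their enriched UMIs, and B-like barcodes had 2 and 11 UMIs. Klrb1c, Klre1, Klrd1 and Klrk1, which chose the members, held 235 of the WT and 394 of the HKO UMIs, so that contrast was in part set by the rule. The other 19 genes had 256 and 489 UMIs in members, 0.677% and 0.863% of enriched UMIs, against 0.170% and 0.111% in T-like barcodes. The centromeric part, from Klrb1a to Klrc1, held most of the UMIs. Klrb1b, an inhibitory receptor for Clr-b, had 71 WT and 130 HKO UMIs, Klrc2 (NKG2C) had 44 and 78, Klrb1f had 27 and 48, and Klrc1 (NKG2A), the inhibitory partner of CD94, had 25 and 38. The Ly49 family, which reads MHC class I, was sparse and uneven. Klra4 had 12 WT and 44 HKO UMIs, Klra8 had 11 and 34, Klra7 had 1 and 23, and Klra9 had 9 and 8. Within the Ly49 family, genes are near-identical over long stretches, so reads could be assigned to the wrong member and single Klra values are uncertain.

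**Figure D2:**
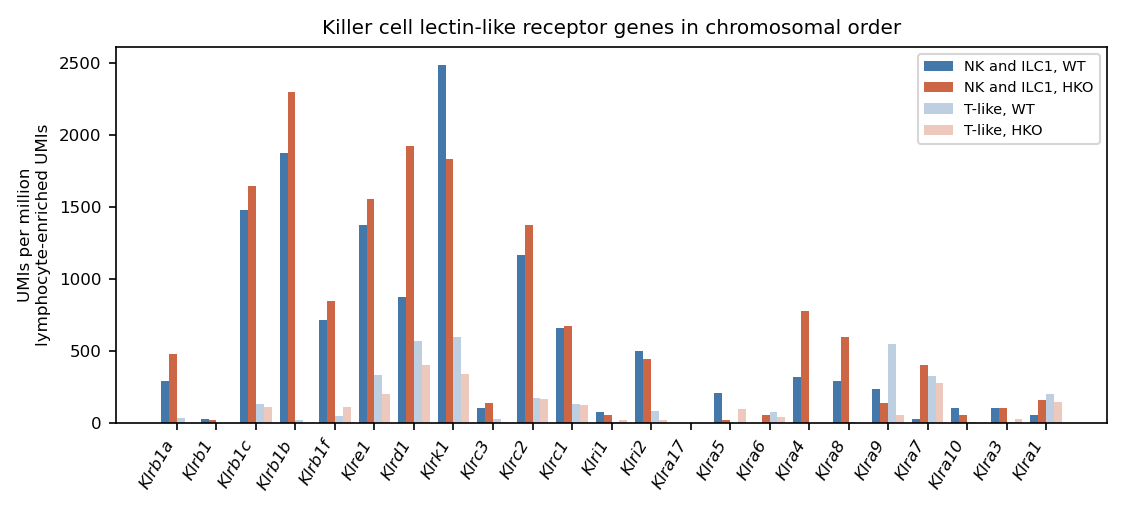
Level of the 23 killer cell lectin-like receptor genes in their order along chromosome 6, in CPM of lymphocyte-enriched UMIs, for NK and ILC1 barcodes (dark bars) and T-like barcodes (pale bars) of the WT and HKO libraries. Klrb1b stands high in NK and ILC1 barcodes and near 0 in T-like barcodes of both libraries, Klrb1c, Klre1, Klrd1 and Klrk1 are high in members by the rule, while Klra9 and Klra7 also appear in T-like barcodes.

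The levels in members were next set against those in 97 WT and 336 HKO T-like barcodes, the other main lymphocytes of the same libraries. The median depth was 7218 UMIs in WT and 2955 in HKO T-like barcodes, close to that of the members. Of 816 genes with at least 50 UMIs in each library, 38 were at least 2-fold higher in the members in both libraries (4.66%) and 46 were at least 2-fold lower in both (5.64%). The 9 markers and the genes that excluded barcodes were not counted among them. With 1 library per genotype these counts are a description, and genes that accompany the CD3 complex were set apart by the rule itself.

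The 10 genes with the highest ratios over T-like barcodes included 2 lectin-like receptors, an adaptor, a cytokine receptor chain and several genes without a set role in NK cells. Klrb1b was at 1877 CPM in WT members and 19.0 in WT T-like barcodes, a ratio of 98.9 (32.5 to 491), and at 2294 in HKO members against 0 UMIs in HKO T-like barcodes, which made it at least 236-fold higher against a floor of 3 counts. Klrc2 was 6.81-fold higher in WT (4.12 to 11.4) and 8.16-fold higher in HKO (5.67 to 11.8). Clnk, an adaptor of the SLP-76 family used in immune receptor signalling, was 5.94-fold and 11.8-fold higher. Il18rap, the accessory chain of the interleukin-18 receptor, was 3.58-fold (2.44 to 5.23) and 5.37-fold higher (3.91 to 7.38). Dscam, an adhesion molecule of the immunoglobulin superfamily best known from neurons, had 93 UMIs in WT and 59 in HKO members against 14 and 10 in T-like barcodes, ratios of 27.7 (15.7 to 52.7) and 32.1 (16.3 to 70.4). In WT 36.6% of the Dscam UMIs of the members came from 1 barcode. The long noncoding RNA Gm36723 on chromosome 12 followed at 14.0 and 8.97, then Gem, Lrmda, Gas7 and Samd3 at 3.95 to 7.59.

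By list, of 10 cytokine receptor and JAK-STAT genes with enough UMIs, 5 were at least 2-fold higher in both libraries, beside 4.66% of all genes, and none was lower. Besides Il18rap these were Il18r1 (2.01 in WT and 3.37 in HKO), Il12rb2 (2.04 and 2.57), Il2rb (2.43 and 2.15) and Stat4 (2.16 and 2.08), which transmit interleukin-18, interleukin-12 and interleukin-15. The median log2 ratio of this list was 0.80 in WT and 0.79 in HKO, against 0.04 and 0.02 over all 816 genes. With all UMIs as the total, Il18r1, Il12rb2 and Stat4 were at 1.71, 1.73 and 1.83 in WT, which left 2 of the 10 past 2-fold in both libraries, Il18rap and Il2rb. Of 11 signalling adaptors, Tyrobp, Fcer1g and Txk were at least 2-fold higher and Cd247, Lat and Sh2d1a at least 2-fold lower, beside 4.66% and 5.64% of all genes. Lat acts downstream of the T cell receptor, Tyrobp and Fcer1g carry the signal of NK receptors, and Cd247 (CD3 zeta) serves the T cell receptor and NK receptors such as NKp46. Tyrobp was 2.76-fold higher in WT (1.97 to 3.84) and 16.1-fold higher in HKO (11.7 to 22.4), and Fcer1g was 2.76-fold (2.04 to 3.72) and 10.2-fold higher (7.44 to 14.1). The level in members was alike in both libraries for Fcer1g, at 2009 and 2082 CPM. Among T-like barcodes it was 728 in WT and 204 in HKO. Of 15 transcription factors, Bach2 (2.29 and 3.07) and Aff3 (2.44 and 3.45) were higher and Bcl11b, which maintains T cell identity, was lower (0.109 and 0.269), beside 4.66% and 5.64% of all genes. With all UMIs as the total, Bach2 was at 1.94 in WT and Tbx21 was past 2-fold in both libraries (2.68 and 2.04). Tbx21 (T-bet) was 3.15-fold higher in WT and 1.95-fold higher in HKO.

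Genes lower in the members included 7 of the 8 T cell genes analysed, beside 5.64% of all genes, and several other genes. The T cell receptor gene Trbc1 was not lower, at 1.16 in WT (0.798 to 1.65) and 1.55 in HKO (1.22 to 1.96). Trac, Themis, Cd6, Cd8a, Cd8b1, Lat and Tcrg-C2 were at or under 4 UMIs in the members of either library. Gzmk (granzyme K) had 0 UMIs in the members of both libraries against 82 and 135 in T-like barcodes, so it was at most 0.153 and 0.121 of the T-like level. The interferon-induced gene Ifi27l2a had 0 UMIs in members against 256 and 380, at most 0.0490 and 0.0429 of the T-like level. Ccl5, the most abundant chemokine of the members, was lower than in T-like barcodes at 0.354 of their level in WT (0.317 to 0.395) and 0.431 in HKO (0.401 to 0.461). Cxcr6, a receptor for liver homing often used to mark ILC1, was at 0.497 (0.270 to 0.852) and 0.363 (0.204 to 0.601). The 9 cytotoxic genes went both ways against T-like barcodes, with a median log2 ratio of 0.10 in WT and 0.15 in HKO. Gzmb was at 0.645 and 0.710 of the T-like level with intervals that included 1, and Srgn at 1.07 and 0.972. Only Serpinb9, an inhibitor of granzyme B, was at least 2-fold higher in both libraries among these 9 genes (2.31 and 3.35), and Gzmk was the only one lower. A count of 1 of 9 each way cannot be told from the 4.66% and 5.64% of all genes. With all UMIs as the total Serpinb9 was at 1.96 in WT. Of 5 interferon response genes, Ifi27l2a and Ly6a (0.0387 and 0.237) were at least 2-fold lower in both libraries, beside 5.64% of all genes, while Ifi203 (0.819 and 1.01) and Irf1 (0.734 and 1.09) lay near 1 and Ifi206 (0.501 and 0.355) was just short of 2-fold in WT, with a list median of −0.996 in WT and −1.49 in HKO.

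**Figure D3:**
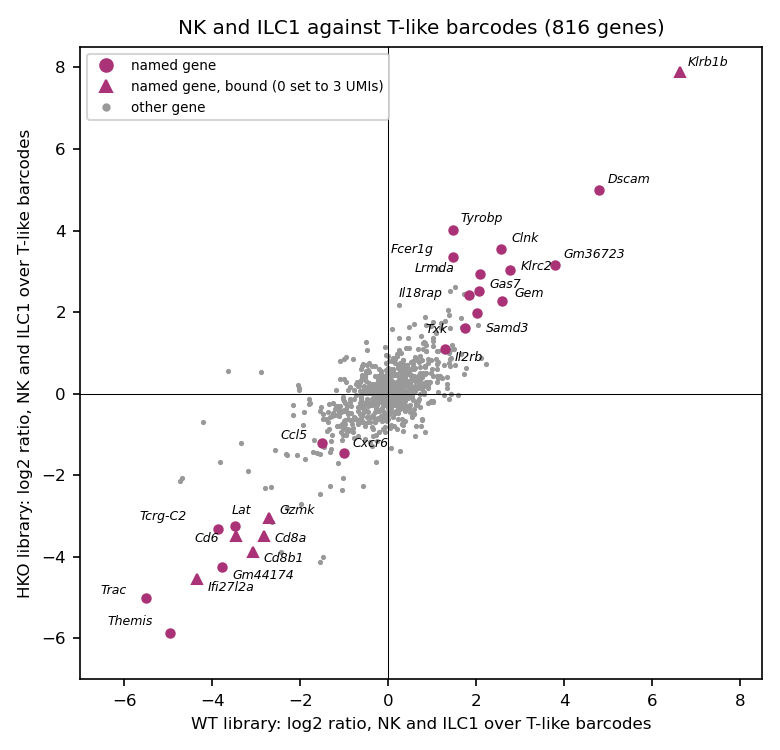
Log2 ratio of NK and ILC1 over T-like barcodes for 816 genes, in the WT library on the horizontal and in the HKO library on the vertical axis. Named genes are purple, as triangles where a count of 0 was set to 3 UMIs, and Klrb1b, Dscam and the receptor adaptors lie upper right in both libraries while Trac, Themis and Ifi27l2a lie lower left.

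The integrins Itga1 (CD49a) and Itga2 (CD49b) were found together in 3 of 25 WT and 2 of 59 HKO members. In WT, 7 members had Itga1 only, 10 had Itga2 only and 5 had neither. In HKO, 19 had Itga1 only, 13 had Itga2 only and 25 had neither. With each member thinned to 300 enriched UMIs, the Itga2-only share was 8.33% of 24 WT members and 19.6% of 56 HKO members, while the unthinned share was higher in WT, so the order turned with thinning. The Itga1-only share was 29.2% and 21.4% when thinned, beside 28.0% and 32.2% unthinned. Free RNA also carried Itga1, with a UMI in 5.96% of WT and 3.02% of HKO free RNA barcodes and an expected 4.15 of the 39 WT UMIs and 2.37 of the 49 HKO UMIs in the members. Itga2 was in 0.113% and 0.104% of free RNA barcodes. Itga1 (chr13:114953096-115101964) and Itga2 (chr13:114833081-114932100) are neighbouring genes on the minus strand in GRCm38.

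Of the 13 NK markers besides Itga2, 9 in WT and 12 in HKO were found in a larger share of Itga2-only than of Itga1-only members, 2 in WT and 1 in HKO in a smaller share, and 2 in WT in neither. These counts are a description of few barcodes, with no test. Klra4 was found in 3 of 10 WT and 8 of 13 HKO Itga2-only members and in 0 of 7 and 0 of 19 Itga1-only members. Klra8 (Ly49H), the activating receptor for a cytomegalovirus protein, was in 3 of 10 and 7 of 13 against 0 of 7 and 0 of 19. Eomes, which also served in the rule, was in 3 of 10 and 5 of 13 against 0 of 7 and 0 of 19. A count of 0 of 19 barcodes limits the barcodes with a UMI and not the cells that express the gene. Prf1 (perforin), which opens the target membrane for granzymes, was in 6 of 10 and 6 of 13 Itga2-only members and in 1 of 7 and 1 of 19 Itga1-only members. Klf2, a transcription factor of recirculating lymphocytes that is not on the NK list, was in 6 of 10 and 7 of 13 Itga2-only members, against 0 of 7 and 4 of 19 Itga1-only members. Irf8 followed the same order at 5 of 10 and 7 of 13 against 1 of 7 and 3 of 19. Zeb2 was in 6 of 10 and 10 of 13 against 4 of 7 and 3 of 19. The exceptions were Gzmb (granzyme B) in WT, with 2 of 10 against 4 of 7, Klra9 in WT, with 2 of 10 against 3 of 7, and Klrg1 in HKO, with 0 of 13 against 1 of 19. In HKO Gzmb was in 7 of 13 against 8 of 19. Outside the NK list, Gzma, which also served in the rule, had the larger share in Itga2-only members mainly in HKO, with 8 of 13 against 1 of 19, while in WT it was in 3 of 10 and 2 of 7.

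Of the 10 ILC1 markers besides Itga1, 7 in WT and 9 in HKO were found in a larger share of Itga1-only members, and 2 in WT and 1 in HKO in a smaller share. Tnfsf10 (TRAIL) was found in 5 of 7 WT and 9 of 19 HKO Itga1-only members and in 2 of 10 and 0 of 13 Itga2-only members. Cd200r1 was in 4 of 7 and 11 of 19 against 3 of 10 and 2 of 13. Il7r was in 8 of 19 against 1 of 13 in HKO but in 2 of 7 against 4 of 10 in WT. Cxcr6 was alike, at 2 of 7 and 5 of 19 against 3 of 10 and 3 of 13. Ccl5 was present in most barcodes of both kinds. The median depth was 8397 UMIs in Itga1-only and 6463 in Itga2-only members of WT, and 2869 and 3234 in HKO. Counted over lists of 14 NK and 11 ILC1 markers, 18 of 25 WT and 40 of 59 HKO members had more ILC1 than NK markers and 7 and 16 had more NK markers. The other 3 HKO members had equal numbers, and a difference of 1 marker separated the lists in 3 WT and 8 HKO members, so members near the limit are not firmly on either side. Free RNA reached the lists unequally, with an expected 101 of 353 WT and 38.8 of 344 HKO UMIs of the ILC1 list. For the NK list it was 3.76 of 175 and 3.28 of 327, so the counts over lists do not give shares of NK cells and ILC1. The ILC1 markers Tmem176a, Tmem176b and Rora were also in free RNA. For Tmem176a the expected free RNA was 35.7 of the 50 WT UMIs and 12.8 of the 20 HKO UMIs.

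**Figure D4:**
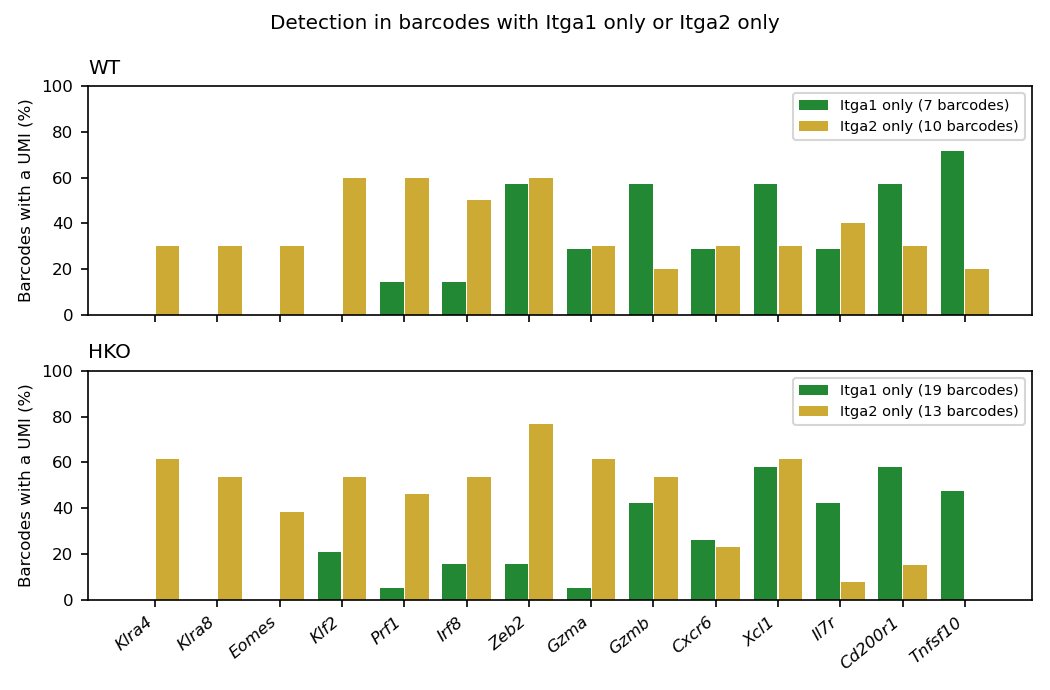
Share of NK and ILC1 barcodes with a UMI of 14 genes, in WT (top) and HKO (bottom), for barcodes with Itga1 but not Itga2 (green, 7 and 19 barcodes) and with Itga2 but not Itga1 (yellow, 10 and 13 barcodes). Klra4, Klra8 and Eomes are at 0 in the Itga1-only barcodes of both libraries, and Tnfsf10 is in 5 of 7 and 9 of 19 of them.

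Between genotypes the counts depended on the total used. Of 715 enriched genes with at least 30 UMIs over both libraries, the markers left out, 30 were at least 2-fold higher in HKO (4.2%) and 26 at least 2-fold lower (3.64%), with a median log2 ratio of −0.06. Among the 165 genes with at least 100 UMIs and no barcode holding over 20% of either library's UMIs, none was past 2-fold in either direction. Without the limit per barcode, Dscam was the only gene of 188 with at least 100 UMIs past 2-fold, with 93 UMIs in 10 WT members and 59 in 21 HKO members, a ratio of 0.423 (0.300 to 0.593), and 1 barcode held 36.6% of its WT UMIs. Without the doublet-like members 24 genes were at least 2-fold higher and 28 lower, of which 19 and 13 were among the 30 and 26. Per UMI of any gene, where free RNA counts too, each ratio is 1.74 times higher and the median log2 ratio is 0.74. On that scale 206 genes were at least 2-fold higher and 1 lower, and the 10 highest of the ranked genes ran from 2.44 for Fam49b to 3.33 for Kcnq5. The ratios below are therefore relative to the lymphocyte-enriched total.

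The 10 highest ratios among these 165 genes lay between 1.40 and 1.91. Ccl5, a chemokine that recruits lymphocytes, had 349 UMIs in WT and 875 in HKO members, 9225 and 15439.5 CPM, a ratio of 1.67 (1.48 to 1.90). A WT member had a median of 2 and up to 55 UMIs of Ccl5, and an HKO member a median of 11 and up to 67, while 76.0% and 74.6% of members had any. In T-like barcodes the Ccl5 ratio was 1.38 (1.33 to 1.43). T cell receptor beta transcripts in the members moved the same way, Trbc1 from 1084 CPM in WT to 1623 in HKO (interval of the ratio 1.03 to 2.22) and Trbc2 from 582 to 1059 (1.10 to 3.12). The 12 T cell markers together had 93 UMIs in WT members, with 6 of the 12 at 0, and 187 in HKO members, with 8 of the 12 at 0. Of these zeros, Cd3d, Cd3e and Cd3g were set by the rule. Trbc1 and Trbc2 held 41 and 22 of the WT and 92 and 60 of the HKO UMIs. The part of the T cell markers in the Ccl5 ratio was not tested. Tyrobp had 62 and 157 UMIs, 1639 and 2770.3 CPM, a ratio of 1.69 (1.25 to 2.31), while in T-like barcodes its ratio was 0.289 (0.202 to 0.409). Lyn, a Src family kinase, had a ratio of 1.58 (1.04 to 2.45) in members and 0.415 (0.281 to 0.610) in T-like barcodes. Kcnq5, a potassium channel gene, was highest of the genes ranked at 1.91 (1.35 to 2.76), with 44 and 126 UMIs, and stood at 2.14 (1.72 to 2.68) in T-like barcodes. Kmt2e, a chromatin regulator, was at 1.70 (1.10 to 2.71), and Nedd9, Epsti1, Parp8, Sh3kbp1 and Fam49b lay between 1.40 and 1.45.

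The 10 lowest ratios among the same 165 genes lay between 0.520 and 0.699. Ets1, a factor needed for NK cell development, had 81 UMIs in 19 WT members and 73 in 37 HKO members, a ratio of 0.602 (0.432 to 0.836). Elf1, of the same family, was at 0.597 (0.401 to 0.887). Btbd9 was the lowest of the 165 at 0.520 (0.346 to 0.778), followed by Fam107b at 0.564 (0.410 to 0.774). Itga4 (alpha-4 integrin) was at 0.677 (0.477 to 0.961) and Utrn at 0.674. In T-like barcodes Ets1 was at 0.821, Elf1 at 1.27 and Btbd9 at 1.12. Per UMI of any gene, Ets1 turns to 1.05, Elf1 to 1.04 and Itga4 to 1.18, and Btbd9 is at 0.907 and Fam107b at 0.982.

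**Figure D5:**
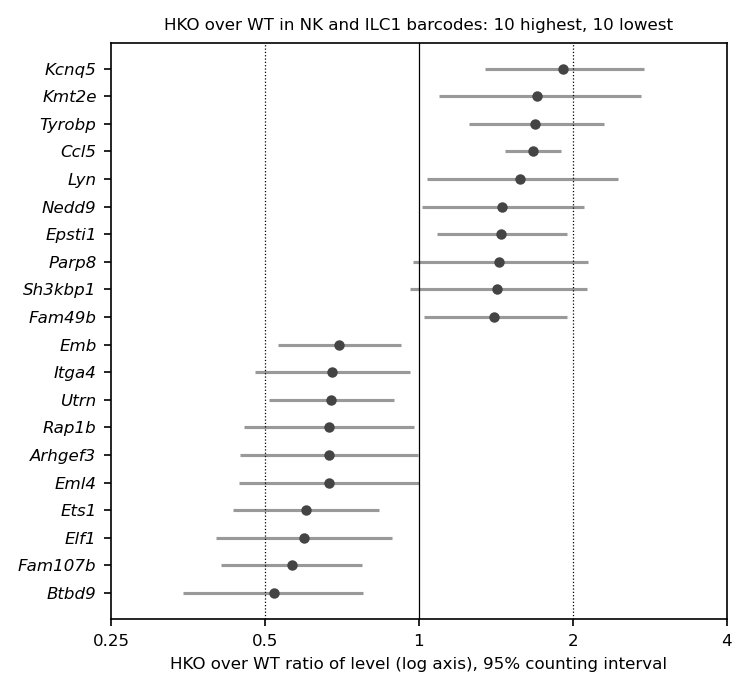
HKO over WT ratio of the level in NK and ILC1 barcodes (log axis) with its 95% counting interval, for the 10 genes with the highest and the 10 with the lowest ratio among 165 genes with at least 100 UMIs. The points lie between 0.520 and 1.91, inside the dotted lines at 2-fold.

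By function, activating receptors had a median log2 ratio of 0.25 over 13 genes and inhibitory receptors of 0.29 over 3, with Klra4 (Ly49D, which signals through Tyrobp) counted as activating. The lists as first drawn up held Klra4 among the inhibitory receptors, with medians of 0.24 over 12 and 0.37 over 4. Klra8, at 2.06 (1.02 to 4.51), and Klra4, described below, were past 2-fold upwards, and Crtam was past 2-fold downwards, at 0.457 (0.207 to 0.975), where 1 barcode held 68.4% of the WT UMIs and without the top barcodes the log2 ratio was 0.037. These were 2 and 1 of 13 genes, beside 4.2% and 3.64% of all genes, and both Ly49 genes share sequence with their relatives and were found in few members. Cd226 (DNAM-1), the most abundant of them outside the rule, was at 3859 and 3211 CPM, a ratio of 0.832 (0.666 to 1.04). Klra4 was at 2.45 (1.27 to 5.09), with its UMIs in 3 of 25 WT and 10 of 59 HKO members. Of the marker genes, Klrd1 had the highest ratio at 2.20 (1.48 to 3.36) and Xcl1 the lowest at 0.673 (0.518 to 0.875). The marker genes chose the barcodes at unequal depth in the libraries, so their ratios are a description only.

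Cytotoxic effectors had a median of −0.04 over 8 genes and none past 2-fold. Per UMI of any gene the median is 0.76 and Prf1 is at 2.33. Gzmb had 19 WT and 30 HKO UMIs (ratio 1.05, 0.574 to 1.98) and Prf1 had 13 and 26 (1.34, 0.662 to 2.83). Ctsw (cathepsin W), a protease of cytotoxic lymphocytes, was lowest at 0.516 (0.320 to 0.826). Granzyme C (Gzmc), outside the count for its few UMIs, had 13 UMIs in 4 WT members and 2 in 2 HKO members.

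Among the cytokines and chemokines 1 of 5 genes was at least 2-fold higher, beside 4.2% of all genes, and a count of 1 cannot be told from that share. Ccl3 had 12 and 40 UMIs, a ratio of 2.23 (1.14 to 4.66), and Ccl4 had 96 and 160, a ratio of 1.11 (0.858 to 1.45). Ccl3 and Ccl4 in T-like barcodes were at 3.76 (2.37 to 6.25) and 3.38 (2.82 to 4.09). Ifng (interferon gamma) was sparse, with 4 UMIs in 3 WT members and 19 in 11 HKO members (3.17, 1.05 to 12.8). Ltb (lymphotoxin beta) was at 0.501 (0.282 to 0.877). Cytokine receptors had a median of −0.16 over 10 genes with none past 2-fold, and Il2rb, Il18rap and Stat4 had ratios of 0.933, 1.01 and 0.887.

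Transcription factors had a median of −0.12 over 13 genes, homing and residency genes of −0.29 over 12, and ILC1 markers of −0.49 over 7, of which 6 were below 0. Per UMI of any gene the median of the ILC1 markers turns to 0.31, with Ltb alone of the 7 below a ratio of 1. Tbx21 was at 0.617 (0.384 to 0.991), Ikzf2 (Helios) at 0.612 (0.431 to 0.867), where 1 barcode held 38.9% of the WT UMIs, and Tox at 1.20 (0.973 to 1.49). Itgb7 was the only homing gene of 12 past 2-fold, at 0.394 (0.183 to 0.818), a count near the 3.64% of all genes that were lower. Rgs1, a brake on chemokine receptor signalling in resident lymphocytes, was at 0.620 (0.435 to 0.881). Per UMI of any gene these ratios turn to 1.08 for Tbx21, 1.07 for Ikzf2 and 1.08 for Rgs1. NK markers had a median of 0.11 over 7 genes, of which Klra4 and Klra8 were at least 2-fold higher, beside 4.2% of all genes. Signalling adaptors had a median of 0.05 over 11, where Syk was the only one past 2-fold with 5 UMIs in 3 WT members and 25 in 12 HKO members (3.34, 1.26 to 11.2), a count near the 4.2% of all genes that were higher. Immediate early genes, which tissue dissociation can raise, had a median of −0.38 over 5 of 23 genes, and 15 of the 23 were not enriched over free RNA.

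Some differences rested on single barcodes. The MHC class II genes H2-Aa, H2-Ab1 and H2-Eb1 were 8.46-fold, 5.51-fold and 3.05-fold higher in HKO, and 1 barcode held between 93.8% and 100.0% of their HKO UMIs. Of the Cd74 UMIs 83.0% lay in 1 HKO barcode. Antigen presentation by class II is a trait of B cells, macrophages and dendritic cells.

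None of the miR-33 targets or unfolded protein response genes was among the genes analysed between genotypes. Some had more UMIs than free RNA would give and some had fewer, and this was not tested. Of 7 miR-33 targets, 6 were not enriched in lymphocytes over free RNA, and Abcg1 had only 5 WT and 7 HKO UMIs. Abca1, the cholesterol exporter, had 34 WT and 29 HKO UMIs where free RNA scaled by hepatocyte genes gives 24.4 and 13.3. Crot, of peroxisomal fatty acid oxidation, had 199 and 88 where free RNA gives 223 and 71.2, and Cpt1a, of mitochondrial fatty acid oxidation, had 24 and 25 where it gives 32.6 and 18.4. All 22 genes of the unfolded protein response were likewise not enriched, and Hspa5 (BiP) had 149 and 70 UMIs where free RNA gives 114 and 26.4. Of the proliferation genes Mki67 and Top2a the WT members held 2 and 1 UMIs and the HKO members none.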

How the data were processed

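Both count matrices were deposited by the authors as raw UMI counts, whole numbers without normalization, from Cell Ranger (7.1.0 per the file headers). The submitters' processing notes also list R 3.0, Seurat 3 and mm10, and the labels name a version 2 reagent kit. How barcodes were chosen for deposit is not given in the sources used here. The members and gene lists were chosen with earlier results of these data known.

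UMIs of the 84 NK and ILC1 barcodes were summed per library. Lymphocyte-enriched genes were those with a mean level over members, T-like and B-like barcodes at least 4-fold above free RNA barcodes. The latter were barcodes under 2 times the median depth of their library with no CD3 transcript and at most 1 marker of each non-hepatocyte cell type. Hepatocyte markers were not limited, so this class can include hepatocytes and free RNA is only its label. Ratios have exact intervals conditional on the summed count, levels exact Poisson intervals and shares exact Clopper-Pearson intervals, all at 95%. UMIs stand for molecules, so the intervals cover counting error and not animals or preparations. A count of 0 was set to 3 counts for a bound. Genes past 2-fold were called in place of a test. Named genes were the members of fixed lists by role, the 10 highest and 10 lowest HKO over WT ratios among genes with at least 100 UMIs and no barcode over 20%, and the 10 highest and lowest ratios over T-like barcodes in both libraries. Doublets were treated by markers and depth and no caller was used. The interval code was tested on simulated data. Python 3.11.15, numpy 2.4.6, pandas 2.3.3, scipy 1.17.1 and matplotlib 3.10.9 were used. Gene positions are from GENCODE M21, and 1 list gene, H2az1, was not found. Items withheld from this text are not reported here.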

Additional observations from a re-analysis of the deposited data

How the results depend on the processing

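The share of NK and ILC1 barcodes was higher in HKO under each alternative that kept all barcodes as the denominator. With at least 1000 UMIs per barcode the HKO share was 0.594% and the ratio 6.94, with at least 2000 UMIs they were 1.11% and 12.3, and with at least 2 of the 9 markers the HKO share was 0.537%. Among lymphocyte barcodes the shares were 16.8% and 11.6% and the ratio reversed to 0.689. Thinning each barcode to 1000 UMIs, chosen after seeing the data, gave a WT share of 0.0274% and a ratio of 15.1. Barcodes that lost a CD3 transcript by thinning could enter these counts. The denominator decides the direction, and the cause was not tested.

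With all UMIs as the total, 206 genes were at least 2-fold higher in HKO and 1 lower, and the list medians were 1.05 for activating receptors, 0.85 for signalling adaptors, 0.76 for cytotoxic effectors, 0.64 for cytokine receptors, 0.68 for transcription factors, 0.51 for homing genes and 0.31 for ILC1 markers. That total also holds free RNA, and the part of free RNA in the shift was not tested. Enrichment of 2-fold gave 46 lower genes. A minimum of 10 UMIs gave 117 higher and 93 lower, and of 100 UMIs 0 and 1, with a homing median of −0.56, by the number of genes kept. Crtam reversed to a log2 ratio of 0.037 without its top barcode. The other counts stayed within 1.5 times their value under the other alternatives, among them barcodes weighted equally, strict members, no doublet-like members and subtracted free RNA, but the genes changed: with barcodes weighted equally 23 of the 30 higher and 14 of the 26 lower genes were shared. The counts against T-like barcodes were 30 to 40 higher and 39 to 46 lower under 3 alternatives chosen after seeing the data. Counting Klra4 as an activating receptor, chosen after seeing the data, moved the median of that list from 0.24 to 0.25. No paired analysis was possible because each genotype was 1 library. Depth limits single genes, as few genes had 100 UMIs or more.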
